A study of Mus musculus with 8 samples.

Results

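Duct cells of the mouse embryo were compared between E9.5 and E10.5, stages counted in embryonic days. The comparison used 4 of the 8 arrays of the series, chosen by their titles: Hoxb7-GFP-positive, Flk1-negative cells of the rostral and the caudal part at E9.5, and cells of the same sort and the same parts at E10.5. Each rostral array was set against the rostral array of the other stage, and each caudal array against the caudal one, so that every gene has a rostral and a caudal difference between the stages. All 4 samples came from embryos of the ICR strain that carry the Hoxb7-GFP reporter, a transgene in which Hoxb7 regulatory sequence drives green fluorescent protein in the duct, and none received a treatment. The source of all 4 is written as part of the WD in the labels. How many embryos were pooled in each sort, and whether the samples of one stage came from separate litters, is not stated in the sources. The p-values therefore measure only the spread between arrays of the series.

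The series as a whole follows precursors of the ureteric bud from E8.75 to E11.5 by flow sorting and 1-colour Agilent microarrays. It has 1 array of Hoxb7-GFP-positive cells at E8.75, 1 of the ureteric bud at E11.5, and 2 of Wt1-GFP-positive cells at E9.5, rostral and caudal, which the series text describes as neighbouring mesoderm of the nephron lineage. Flk1, the product of Kdr, is a receptor for vascular endothelial growth factor, and the gate on it removes cells of the endothelial lineage.

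The nephric duct forms by conversion of intermediate mesoderm into an epithelial tube, which grows caudally along the body axis behind a leading tip until it reaches the cloaca. Gata3, Pax2 and Lhx1 are transcription factors needed for the duct, and the receptor tyrosine kinase Ret, which binds GDNF, guides the tip and later drives outgrowth of the ureteric bud. The duct and bud give rise to the collecting system of the kidney, so genes of the mature collecting duct, tight junctions and keratins are features of the later lineage, whereas Vim, Cdh2, Zeb1 and Twist1 are features of mesenchyme and of early mesoderm.

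A level is given throughout as log2 of the probe's processed signal minus log2 of the 75th percentile signal of its array, so that 0 marks the 75th percentile and 1 unit is a 2-fold change. Levels of different genes rest on different probes and are not set against each other. Arrays shared 1 slide and 1 scan time. The 3 arrays of E9.5 rostral, E9.5 caudal and E10.5 rostral lay in 1 row of the slide and the E10.5 caudal array in the other, so the rostral differences lie within a row and the caudal differences cross rows. The share of probes well above background ran from 61.5% on the E10.5 caudal array to 69.2% on the E10.5 rostral array, and no probe was saturated. Pairwise Pearson correlations of the 4 arrays lay between 0.954 and 0.96, across probes that are not independent replicates. The E9.5 rostral array stood apart in its neural markers. The summed signal of 19 neural marker genes, in units of the array's 75th percentile, was 291 there. It was 53.2, 49.7 and 68.0 on the E9.5 caudal, E10.5 rostral and E10.5 caudal arrays. The E9.5 caudal array was the highest in 17 endoderm and cloaca markers. Their summed signal was 3.96 there, with 11 well above background. On the E9.5 rostral, E10.5 rostral and E10.5 caudal arrays it was 1.07, 2.56 and 1.03, with 5, 7 and 4 well above background. Every rostral difference rests on the E9.5 rostral array. The caudal difference beside it does not use that array, but it compares another part of the duct and crosses slide rows. In sorted bulk samples, fewer cells of a type and less RNA per cell cannot be told apart.

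The sort was checked on its own genes first. Hoxb7, whose regulatory sequence drives the reporter, had levels of 2.44 and 2.30 on the rostral and caudal arrays at E9.5 and of 3.22 and 3.17 at E10.5. Both E10.5 arrays were above both E9.5 arrays, and the fitted difference was 0.82 ± 0.21 (SE, n = 2 arrays per stage; limma, adjusted p = 0.61). Kdr had levels of 1.95 and 1.84 at E9.5 and of 1.62 and 1.70 at E10.5, against 4.12 at E8.75. Its other probe gave a mean difference between the stages of -2.19, where the probe used gave -0.24. Wt1, a transcription factor of the coelomic lining and nephron lineage, had levels of -0.20 and -1.94 at E9.5 and of -0.98 at E10.5 rostral, and was not well above background at E10.5 caudal. The Wt1-GFP arrays stood at 4.08 and 4.01, above all 4 duct arrays. Epcam, an epithelial adhesion molecule, had levels of 2.62 and 4.44 at E9.5 and of 4.62 and 4.84 at E10.5, with the E9.5 rostral array lowest.

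No gene passed the test between the stages. Of 29538 genes tested with limma, 0 (0%) had an adjusted p under 0.05, the lowest adjusted p was 0.52, and 2206 genes had an unadjusted p under 0.05 where 1477 would be expected if no gene differed. Of those 2206, 1130 were higher and 1076 lower at E10.5. With a prior variance that follows intensity, 0 genes passed and 2515 had an unadjusted p under 0.05. The fit had 2 residual degrees of freedom, and the median standard error of a difference was 0.31. Its spread came from how the rostral to caudal difference varied among the E9.5 duct, the E10.5 duct and the Wt1-GFP cells. Standard errors and p-values here therefore rest partly on the Wt1-GFP arrays, beside the 2 arrays per stage. The genes below are therefore described by size and by whether both position pairs moved the same way, and the words higher and lower refer to the levels on these arrays.

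A gene was counted by size when its rostral and its caudal difference were both at least 2-fold in the same direction and it was well above background on both arrays of the brighter stage. By this rule 444 genes (1.5%) were higher at E10.5 and 332 (1.12%) lower, and of these 302 and 203 were well above background on all 4 arrays. At 4-fold, 72 genes were higher and 50 lower. For genes chosen by the 2-fold rule, stages that do not overlap follow largely from the choice. Such statements below are description only, and the share over all genes was not counted. A further 400 genes (1.35%) differed at least 2-fold in opposite directions in the pairs. Single pairs held many more: 1858 genes (6.29%) were at least 2-fold higher and 2542 (8.61%) lower in the rostral pair, and 2347 (7.95%) higher and 1270 (4.3%) lower in the caudal pair. The median difference over all genes was 0.0 in either pair. The shares 1.5% and 1.12% are the background for counts by the size rule in the gene lists below. For counts at any size the background is 21.5% of all genes higher and 22.1% lower in both pairs.

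**Figure D1:**
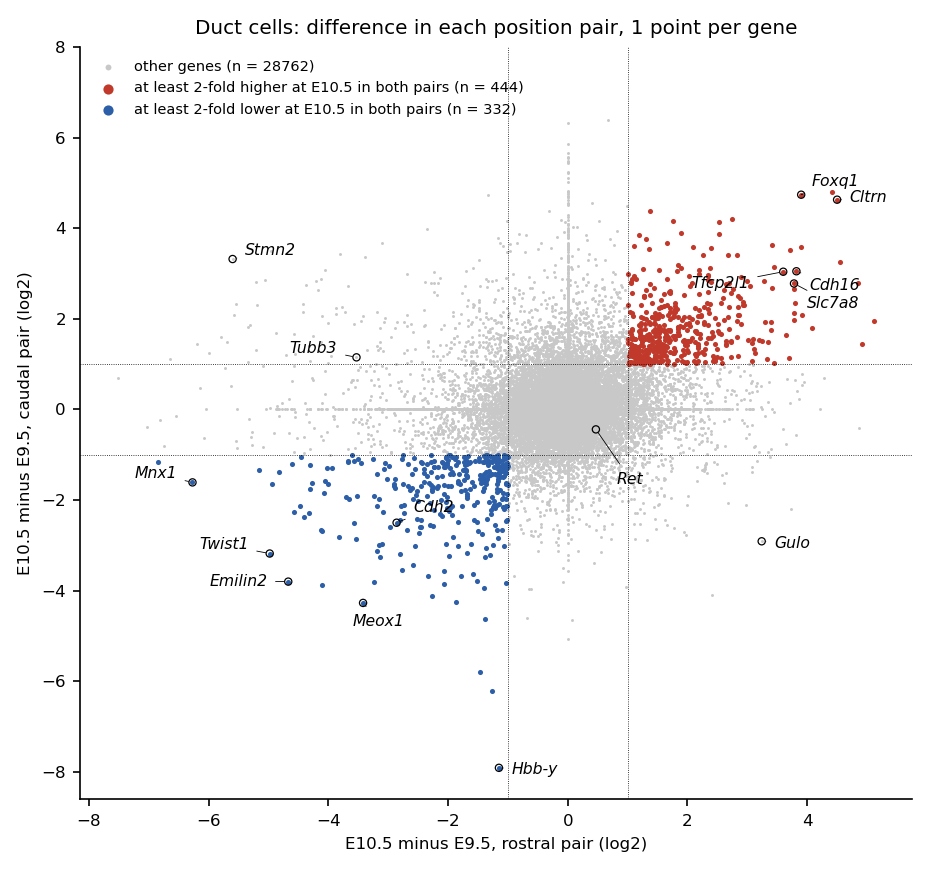
The plot of both differences has 1 point per gene, with the E10.5 minus E9.5 difference of the rostral pair on the x axis and of the caudal pair on the y axis, both in log2 units; dotted lines mark 2-fold. The 444 genes higher in both pairs (red) include Cltrn, Foxq1, Cdh16, Slc7a8 and Tfcp2l1, the 332 lower in both (blue) include Meox1, Emilin2, Twist1 and Cdh2, and Stmn2 and Gulo lie in the quadrants of opposite direction.

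Among the genes with the largest differences in both pairs, those higher at E10.5 included genes of the collecting duct epithelium. Tfcp2l1, a transcription factor of the distal nephron and collecting duct, had levels of 1.19 and 0.49 on the rostral and caudal arrays at E9.5 and of 4.80 and 3.52 at E10.5. Both E10.5 arrays lay above both E9.5 arrays by 12.1-fold in the rostral and 8.20-fold in the caudal pair (fitted difference 3.32 ± 0.40, SE, n = 2 arrays per stage; adjusted p = 0.52). On the other arrays Tfcp2l1 was at 5.33 in the E11.5 bud, at -3.76 at E8.75, and not well above background in either Wt1-GFP sample. Its other probe gave a mean difference of 3.12.

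Foxq1, a forkhead transcription factor, had levels of -1.76 and -4.10 at E9.5 and of 2.14 and 0.65 at E10.5, which was 14.9-fold and 26.8-fold. Cdh16, the kidney-specific cadherin of tubular epithelium, had levels of -0.14 and -1.21 at E9.5 and of 3.68 and 1.83 at E10.5, which was 14.1-fold and 8.27-fold. The stages did not overlap for either gene, and within each stage the rostral array was the brighter. Slc7a8, a transporter of neutral amino acids, had levels of -0.14 and 0.51 at E9.5 and of 3.64 and 3.30 at E10.5 (13.7-fold and 6.89-fold; fitted difference 3.28 ± 0.34, SE, n = 2 arrays per stage; adjusted p = 0.52). Cltrn, the collectrin gene, whose product is a membrane protein of the tubule and collecting duct, was at -3.37 at E9.5 rostral and not well above background at E9.5 caudal. It reached 1.13 and -0.33 at E10.5, which was 22.7-fold higher in the rostral and at least 24.8-fold higher in the caudal pair.

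Several of the largest differences started from signals that were not well above background at E9.5, so their folds are lower bounds. A bound takes, for an array where the gene is not well above background, the gene's own level or, if that is lower, the level of the dimmest probe that array measured well above background. Scnn1b, a subunit of the epithelial sodium channel of the collecting duct, was not well above background on either E9.5 array and was at -0.21 and -1.70 at E10.5, at least 23.4-fold and at least 9.58-fold higher. The E11.5 bud stood at -3.71, below both E10.5 arrays. Nhlrc4 (at least 9.69-fold and 7.11-fold) and Plch2, a phospholipase C (at least 3.41 and 3.63 log2 units), were likewise well above background only at E10.5 among the 4 arrays. On the probes used, so were Bnipl (at least 10.8-fold and 8.86-fold) and Ccdc65, a component of motile cilia (at least 7.41-fold and 7.64-fold). Other probes measured in both pairs gave mean differences of 2.33 for Bnipl and 1.34 for Ccdc65. That Ccdc65 probe was well above background on 3 of the 4 arrays. Plch2 was not well above background on any other array of the series, and Ccdc65 was, at -2.95 at E8.75 and at -3.05 and -1.42 in the Wt1-GFP samples.

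The rest of the 15 largest higher genes were measured on at least 1 E9.5 array. Cys1, which encodes the ciliary protein cystin, had levels of -3.34 and -4.47 at E9.5 and of 0.56 and -0.89 at E10.5 (14.9-fold and 11.9-fold). Dcdc2a, a doublecortin-domain gene, had levels of -2.44 and -2.40 at E9.5 and of 1.28 and 1.12 at E10.5 (by 3.71 and 3.52 on the log2 scale); its other probe was not well above background on any of the 4 arrays. Stages were apart on the probes used for both genes. Mymx, known for a small membrane protein of muscle cell fusion, was at -3.51 at E9.5 rostral, not well above background at E9.5 caudal, and at 0.91 and -0.17 at E10.5 (21.4-fold and at least 27.8-fold). Dock8, a guanine nucleotide exchange factor best known in immune cells, was 7.12-fold and 10.6-fold higher at E10.5. Mme, a membrane metallopeptidase of renal epithelium, was at least 28.9-fold and 6.98-fold higher.

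**Figure D2:**
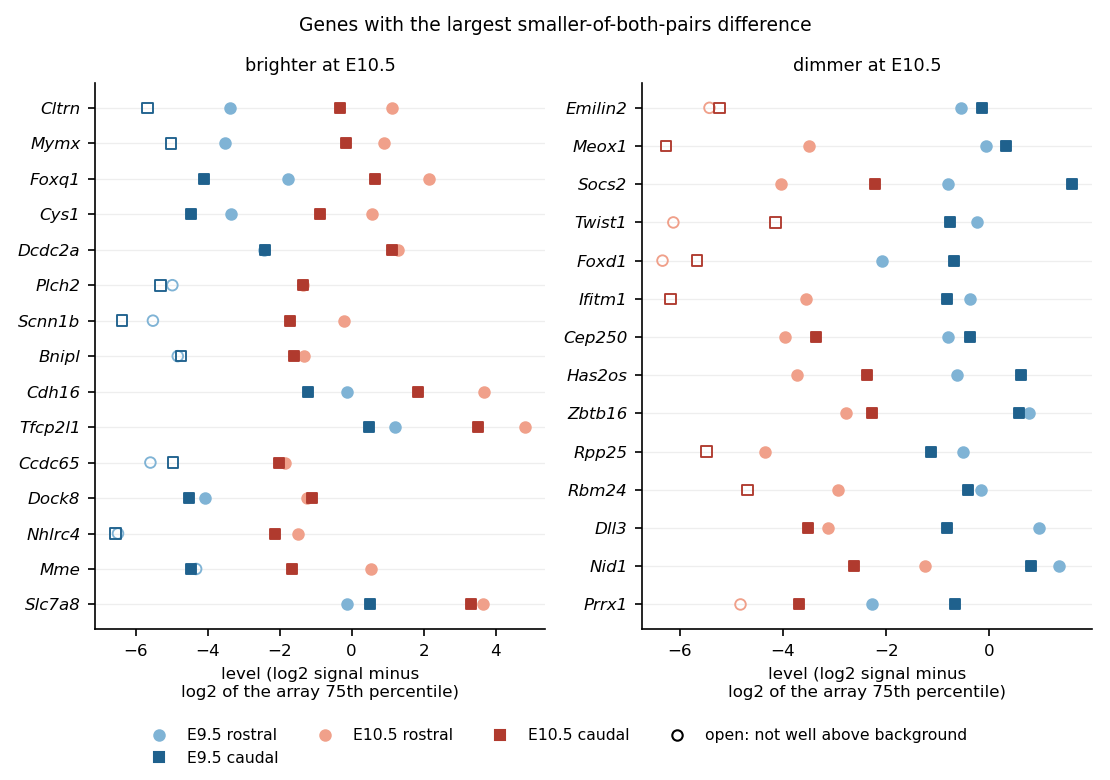
The plot of the largest differences gives the level on each of the 4 duct arrays (x axis, log2 signal minus log2 of the array 75th percentile) for genes among the 15 with the largest smaller-of-both-pairs difference in either direction; open symbols are not well above background. In each row both E10.5 arrays lie on the same side of both E9.5 arrays, which the rule for choosing these genes requires within each pair.

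Of the transcription factors of the duct, Pax2 and Lhx1 varied by less than 1 unit over the 4 arrays. Pax2 had levels of 5.18 and 5.36 at E9.5 and of 5.24 and 4.92 at E10.5, and its 2 other probes gave mean differences of 0.06 and 0.40 against -0.19 on the probe used. Lhx1 had levels of 3.1 and 3.69 at E9.5 and of 2.85 and 2.70 at E10.5, so that both E10.5 arrays were lower, by 1.19-fold and 1.99-fold. Gata3 had levels of 1.69 and 3.00 at E9.5 and of 2.97 and 3.04 at E10.5, where the E9.5 rostral array was the low one and the other 3 were alike. Gata2, a relative of Gata3 expressed in the duct and the urogenital tract, had levels of -0.46 and -1.26 at E9.5 and of 0.58 and 0.44 at E10.5 (2.05-fold and 3.26-fold). Over the list of 20 duct transcription factors, 2 (10.0%) were at least 2-fold higher in both pairs, Gata2 and Tfcp2l1, and 0 were lower. The list's median difference was 0.26, with 0.24 in the rostral and -0.03 in the caudal pair.

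Ret differed more by position than by stage. It had levels of -0.66 at E9.5 rostral, 2.23 at E9.5 caudal, -0.20 at E10.5 rostral and 1.79 at E10.5 caudal, and the E11.5 bud stood at 2.15. The caudal array was higher at both stages, and the fitted stage difference was 0.02 ± 0.48 (SE, n = 2 arrays per stage; adjusted p = 1.0). Ret was not well above background in either Wt1-GFP sample. Of 26 genes of GDNF-Ret signalling and its targets, 3 were at least 2-fold lower at E10.5 in both pairs and 0 higher, and 13 were lower and 2 higher in both pairs at any size, where 22.1% and 21.5% of all genes were. The list's median difference was -0.29.

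Those 3 genes were Etv1, Cxcr4 and Wnt11. Etv1, an ETS factor of the same family as the Ret targets Etv4 and Etv5, had levels of -0.28 and 0.88 at E9.5 and of -3.80 and -1.04 at E10.5 (by -3.52 and -1.91 on the log2 scale). Its other probe was not well above background on any of the 4 arrays. Cxcr4, the receptor of the chemokine Cxcl12, had levels of 5.55 and 5.73 at E9.5 and of 2.57 and 4.49 at E10.5, with 6.12 at E8.75 and 4.90 in the E11.5 bud. The E10.5 rostral array was the low one, 7.90-fold under its E9.5 partner against 2.36-fold in the caudal pair. Wnt11, a tip ligand that signals with Ret, had levels of -0.51 and 0.73 at E9.5 and of -1.78 and -0.71 at E10.5 (2.40-fold and 2.70-fold lower), and stood at 0.95 in the E11.5 bud. Its E10.5 caudal level and its E9.5 rostral level were close, so the stages were apart within positions more than across them.

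Etv4 and Etv5 fell outside the rule for named genes and are given because they are the best known Ret targets, with their values seen. Etv4 had levels of 2.87 and 4.25 at E9.5 and of 1.47 and 3.64 at E10.5, and Etv5 of 2.98 and 4.19 at E9.5 and of 2.54 and 3.40 at E10.5. For both genes the caudal array was the higher at each stage and the E10.5 rostral array the lowest of the 4. Kit, a receptor tyrosine kinase that also marks germ cells, had the same order of arrays, with levels of 2.04 and 3.49 at E9.5 and of 1.46 and 2.76 at E10.5.

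Genes of the duct trunk and collecting duct formed the list with the highest share of members higher at E10.5 among the 38 lists. Of 27 measured members, 8 (29.6%) were at least 2-fold higher in both pairs and 0 lower, against 1.5% and 1.12% of all genes; 17 were higher and 1 lower in both pairs at any size. The list's median difference was 1.07, with 1.85 in the rostral and 0.82 in the caudal pair, against 0.0 over all genes. Among the 8 were Calb1, Elf5, Scnn1b, Cdh16, Krt7, Krt8 and Krt19. In the caudal pair alone, 10 members were at least 2-fold higher, where 7.95% of all genes were.

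Calb1, the calcium-binding protein calbindin that marks the ureteric bud, had levels of 0.40 and 1.83 at E9.5 and of 3.65 and 3.34 at E10.5. Krt8, a keratin of simple epithelia, had levels of 1.05 and 1.94 at E9.5 and of 3.44 and 3.51 at E10.5, which was 5.23-fold and 2.96-fold (fitted difference 1.98 ± 0.35, SE, n = 2 arrays per stage; adjusted p = 0.54). The stages did not overlap for either gene, and the E9.5 rostral array was the lowest. Krt7, which marks ductal epithelium, had levels of -2.51 and -1.30 at E9.5 and of 0.87 and 0.61 at E10.5 (differences of 3.39 and 1.92). Krt19 had levels of -2.93 and -2.80 at E9.5 and of -1.0 and -0.98 at E10.5 (3.81-fold and 3.54-fold), with the arrays of a stage within 0.2 units. The Wt1-GFP samples were brighter still for Krt19, at 0.78 and 0.05. Elf5, an ETS factor of collecting duct principal cells, was not well above background on either E9.5 array and was at least 6.35-fold and 4.12-fold higher at E10.5.

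The list of epithelial junction and polarity genes went the same way by smaller steps. Of 44 measured members, 7 (15.9%) were at least 2-fold higher in both pairs and 0 lower, and 31 were higher and 3 lower in both pairs at any size. The median difference was 0.73, made of 1.22 in the rostral and 0.19 in the caudal pair. The 7 were Cdh1, Cldn3, Cldn8, Tjp3, St14, Prom2 and Rab25. In the rostral pair alone 28 members were at least 2-fold higher, and in the caudal pair alone 7, where 6.29% and 7.95% of all genes were. With normexp background correction, which compresses dim signals, 4 members passed in both pairs.

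Cdh1, which encodes E-cadherin, had levels of -2.26 and -2.39 at E9.5 and of -0.47 and -1.04 at E10.5 (3.44-fold and 2.54-fold; fitted difference 1.56 ± 0.23, SE, n = 2 arrays per stage; adjusted p = 0.54). Cldn3, a tight junction claudin, had levels of -2.30 and -2.14 at E9.5 and of -0.39 and -0.16 at E10.5 (3.76-fold and 3.94-fold). For both genes the arrays of a stage lay within 0.6 units of each other and the stages did not overlap, and neither gene was well above background at E8.75 or in the Wt1-GFP samples. Cldn8, a claudin of the collecting duct, had levels of -1.08 and 0.46 at E9.5 and of 2.70 and 2.44 at E10.5, with 4.05 in the E11.5 bud. Tjp3, a scaffold of tight junctions, was 6.21-fold and 2.83-fold higher, and Rab25, a GTPase of apical recycling, 2.86-fold and 4.04-fold. Prom2, which encodes a protein of membrane protrusions, was 3.85-fold and 5.74-fold higher, with 0.69 as the mean difference on its other probe.

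Mesenchymal genes made the list with the highest share lower at E10.5 among the 38. Of 23 members, 9 (39.1%) were at least 2-fold lower in both pairs and 0 higher, against 1.12% and 1.5% of all genes, and 16 were lower and 0 higher in both pairs at any size. The median difference was -1.35, with -2.39 in the rostral and -0.85 in the caudal pair. The 9 were Vim, Cdh2, Cdh11, Snai2, Zeb1, Twist1, Prrx1, Col1a2 and Pdgfra. In the caudal pair alone, 10 members were at least 2-fold lower, where 4.3% of all genes were. Counted over genes well above background on all 4 arrays, 4 members remained in the count, and with normexp 5.

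Cdh2, which encodes N-cadherin, had levels of 5.50 and 5.43 at E9.5 and of 2.65 and 2.93 at E10.5, with 2.97 in the E11.5 bud and 6.35 at E8.75. The arrays of a stage lay within 0.3 units and the stages did not overlap (7.25-fold and 5.66-fold lower; fitted difference -2.68 ± 0.28, SE, n = 2 arrays per stage; adjusted p = 0.52); its other probe gave -2.97. Vim, the intermediate filament vimentin, had levels of 3.33 and 2.43 at E9.5 and of 0.13 and 0.29 at E10.5 (9.15-fold and 4.41-fold lower; fitted difference -2.67 ± 0.36, SE, n = 2 arrays per stage; adjusted p = 0.53). Zeb1, a zinc finger repressor of epithelial genes, had levels of 2.38 and 0.30 at E9.5 and of -2.04 and -2.08 at E10.5 (21.3-fold and 5.21-fold lower). The E9.5 rostral array was the higher of the E9.5 arrays for Vim and Zeb1, and both E10.5 arrays were below both E9.5 arrays.

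Snai2, a repressor of the Snail family, had levels of -0.23 and -1.23 at E9.5 and of -2.71 at E10.5 rostral, and was not well above background at E10.5 caudal (5.58-fold and at least 6.57-fold lower). Twist1, a basic helix-loop-helix factor of mesenchyme, had levels of -0.24 and -0.77 at E9.5 and was not well above background on either E10.5 array (at least 31.6-fold and at least 9.08-fold lower). Prrx1, a homeobox factor of limb and lateral plate mesenchyme, was at least 5.84-fold and 8.12-fold lower, and Pdgfra, a receptor of stromal cells, 16.2-fold and at least 3.12-fold. All 9 genes were also measured in the Wt1-GFP cells, where Twist1 stood at 2.27 and 2.19, Zeb1 at 3.16 and 3.27 and Vim at 4.14 and 4.22. The summed signal of the mesenchymal list was 104 and 105 on the rostral and caudal E9.5 arrays, 33.2 and 39.9 at E10.5, and 261 and 185 in the Wt1-GFP cells. How much of the E9.5 signal came from other cells in the sort was not tested.

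**Figure D3:**
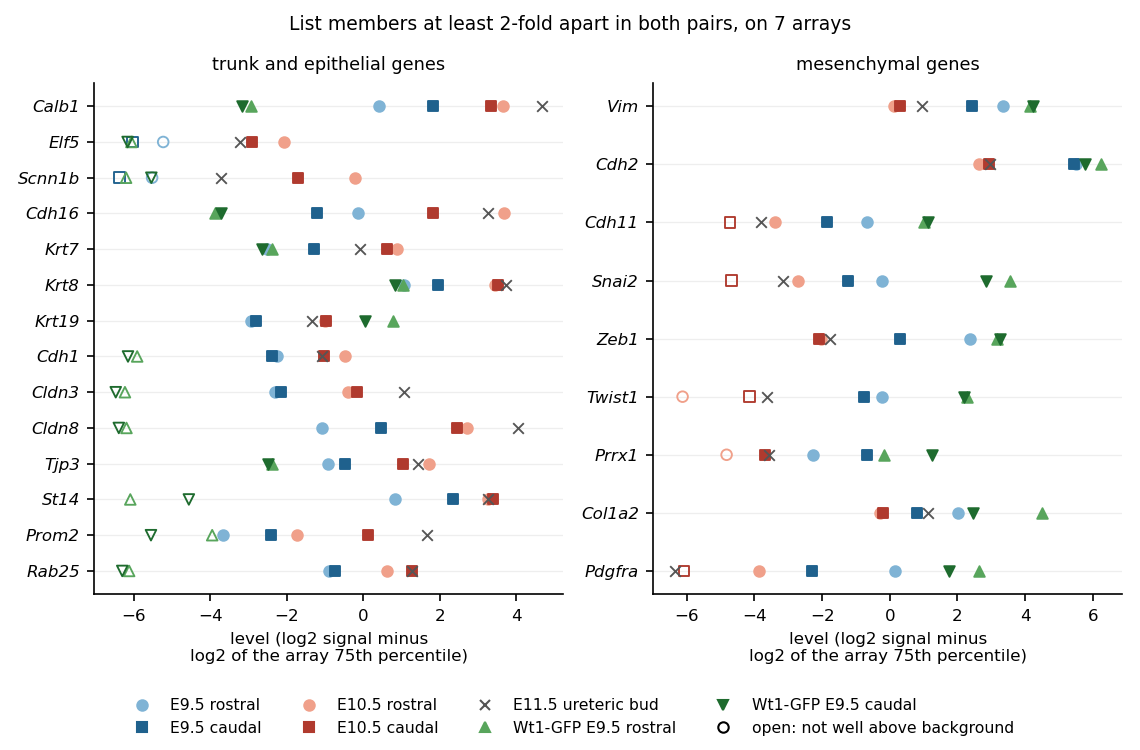
The plot of trunk, epithelial and mesenchymal genes gives the level (x axis, log2 signal minus log2 of the array 75th percentile) on the 4 duct arrays, the E11.5 bud and both Wt1-GFP arrays for list members at least 2-fold apart in both pairs; open symbols are not well above background. Cdh2 and Vim lie between their E10.5 and Wt1-GFP levels at E9.5, while Cdh1, Cldn3 and Rab25 were not well above background in the Wt1-GFP cells.

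Promoters were searched for CACCTG, the E-box that Snail and Zeb proteins bind, as Zeb1 and Snai2 were among the lower genes. Whether these proteins bind or regulate any gene here was not tested. The window was the 250 bases before each RefSeq start, on both strands, where CACCTG read from the opposite strand appears as CAGGTG. Of the genes past the size rule, 341 higher and 266 lower ones had a RefSeq name, and 275 and 191 of these had a promoter entry. The sequence was in at least 1 promoter of 74 of the 275 higher genes (26.9%) and of 38 of the 191 lower ones (19.9%). Over all genes with a RefSeq entry, whether measured here or not, it was in 5252 of 27025 (19.4%). No test was made of these shares, and a match describes the letters only. Matches in the last 150 bases were also present in Aldh1a2, which was lower, and in Wnt5b, Egfl7 and Nanog, which did not pass the size rule. Shown are the 150 bases before the start of 4 genes that were higher at E10.5 and hold CACCTG close to their start. Those of Frem1, which was lower and holds it too, are shown beside them. These stretches are from RefSeq on GRCm38.p6, run 5′ to 3′ on the gene's own strand, and have the motif in capitals. Tfcp2l1 lies on the plus strand (chr1:118627795-118627944), Krt7 on plus (chr15:101412253-101412402), Krt8 on minus (chr15:102004343-102004492), Rab25 on minus (chr3:88548280-88548429) and Frem1 on minus (chr4:83021103-83021252).
Tfcp2l1: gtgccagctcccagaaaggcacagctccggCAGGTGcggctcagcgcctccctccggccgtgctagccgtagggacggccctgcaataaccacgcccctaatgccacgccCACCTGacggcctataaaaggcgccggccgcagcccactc
Krt7: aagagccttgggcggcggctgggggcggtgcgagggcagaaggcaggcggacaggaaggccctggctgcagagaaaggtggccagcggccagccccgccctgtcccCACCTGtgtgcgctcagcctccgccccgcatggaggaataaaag
Krt8: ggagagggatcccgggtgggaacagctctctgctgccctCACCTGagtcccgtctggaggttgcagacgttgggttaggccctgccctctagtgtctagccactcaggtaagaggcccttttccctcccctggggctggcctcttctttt
Rab25: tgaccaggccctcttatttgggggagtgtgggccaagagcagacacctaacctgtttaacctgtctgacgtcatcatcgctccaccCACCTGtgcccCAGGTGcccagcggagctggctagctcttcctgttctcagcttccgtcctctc
Frem1: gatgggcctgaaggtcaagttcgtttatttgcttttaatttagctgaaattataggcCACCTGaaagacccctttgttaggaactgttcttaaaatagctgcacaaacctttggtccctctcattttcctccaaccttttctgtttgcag
The matches begin 120 and 40 bases before the start of Tfcp2l1, 44 before Krt7, 111 before Krt8, 64 and 53 before Rab25, and 93 before Frem1.

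Basement membrane genes and their receptors moved in both directions. Of 35 measured members, 2 were at least 2-fold higher in both pairs, Lamb3 and Itgb6, and 4 (11.4%) lower, Lama4, Nid1, Itga1 and Frem1. Itga1 differed by -1.0 in the rostral and -1.25 in the caudal pair. Its other probe, well above background on all 4 arrays, differed by -1.05 and 0.1. Itgb6, an integrin subunit of epithelia, had levels of -3.37 and -2.56 at E9.5 and of -0.53 and -0.30 at E10.5 (7.15-fold and 4.78-fold higher), and Lamb3, a laminin chain of epithelial basement membranes, was at least 8.46-fold and 2.76-fold higher. Nid1, which encodes the linker protein nidogen, had levels of 1.34 and 0.81 at E9.5 and of -1.25 and -2.63 at E10.5 (6.02-fold and 10.8-fold lower), and its 2 other probes gave mean differences of -2.03 and -1.27. Lama4, a laminin chain of mesenchyme and vessels, had levels of 1.99 and 2.60 at E9.5 and of 0.15 and -0.42 at E10.5. Frem1, an extracellular matrix protein at epithelial borders, was at -3.38 and -2.37 at E9.5 and not well above background at E10.5. On the probe used for each of these genes the stages did not overlap, which follows largely from the size rule that chose them.

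The other genes that were furthest below their E9.5 level at E10.5 included regulators of mesoderm. Meox1, a homeobox factor of the paraxial and intermediate mesoderm, had levels of -0.07 and 0.32 at E9.5, -3.49 at E10.5 rostral, and was not well above background at E10.5 caudal (a difference of -3.42 in the rostral pair, and at least 19.3-fold lower in the caudal one). It stood at 3.23 at E8.75 and at 3.44 and 3.28 in the Wt1-GFP cells. Foxd1, a stromal forkhead factor, had levels of -2.08 and -0.69 at E9.5 and was not well above background at E10.5, at least 8.82-fold and 9.55-fold lower. Zbtb16, a zinc finger repressor, had levels of 0.76 and 0.58 at E9.5 and of -2.77 and -2.27 at E10.5 (11.6-fold and 7.22-fold lower). Emilin2, an extracellular glycoprotein, had levels of -0.55 and -0.15 at E9.5 and was not well above background at E10.5 (at least 25.4-fold and 13.9-fold lower) or in the E11.5 bud.

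Socs2, a suppressor of cytokine signalling, had levels of -0.81 and 1.59 at E9.5 and of -4.04 and -2.21 at E10.5 (9.37-fold and 13.9-fold lower; fitted difference -3.51 ± 0.26, SE, n = 2 arrays per stage; adjusted p = 0.52). The caudal array was the brighter at both stages, and 2 of its 3 other probes gave mean differences of -3.37 and -3.43, while the third was not well above background on any of the 4. Dll3, a Notch pathway ligand of the presomitic mesoderm, had levels of 0.96 and -0.83 at E9.5 and of -3.13 and -3.51 at E10.5 (17.1-fold and 6.43-fold lower). Has2os, the RNA antisense to the hyaluronan synthase gene Has2, was 8.57-fold and 7.88-fold lower; signal from overlapping genes may not be separable on a probe whose strand use is not stated. Ifitm1, an interferon-induced membrane protein of early mesoderm, was 9.13-fold and at least 8.72-fold lower, Rbm24, an RNA-binding protein of muscle, 6.82-fold and at least 11.6-fold, and Rpp25, a subunit of ribonuclease P, 14.1-fold and at least 7.04-fold. Cep250, a centrosomal protein, was 8.89-fold and 7.93-fold lower, with -0.77 as the mean difference on its other probe.

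None of 38 measured Hox genes was at least 2-fold higher in both pairs. Among 12 anterior genes 0 were lower by that rule, and at any size 6 were lower and 0 higher in both pairs. Among 11 middle genes 1 was at least 2-fold lower, Hoxc6, and at any size 7 were lower and 2 higher. Among 15 posterior genes 3 were at least 2-fold lower, Hoxa11, Hoxc9 and Hoxd11, and at any size 8 were lower and 2 higher. The summed signal of the posterior list went the other way in the rostral pair, from 38.7 to 70.2, and was 35.2 and 35.7 in the caudal pair. Hoxc6 had levels of 3.35 and 0.56 at E9.5 and of 0.90 and -2.04 at E10.5 (5.45-fold and 6.03-fold lower). The rostral array was the higher at each stage, and the E10.5 rostral level lay above the E9.5 caudal one, so the stages overlapped across positions. Hoxc9 had levels of 1.81 and -0.41 at E9.5 and of -3.13 and -2.06 at E10.5, with 2.79 and 2.97 in the Wt1-GFP cells. Hoxd11 had levels of -4.04 and 0.78 at E9.5, was not well above background at E10.5 rostral, and was at -1.87 at E10.5 caudal. Hoxd11 was the brighter in the caudal part at either stage. The bright anterior gene Hoxc4 had levels of 5.69 and 4.98 at E9.5 and of 4.89 and 4.52 at E10.5, 1.73-fold and 1.37-fold lower.

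The Wnt, retinoic acid and FGF lists held members of both directions. In the Wnt list of 47, 3 were at least 2-fold higher (Ror1, Rnf43 and Dkk3) and 4 lower (Wnt11, Fzd10, Ror2 and Rspo3). Fzd10, a Wnt receptor, had levels of -1.35 and -0.27 at E9.5 and of -3.60 and -2.84 at E10.5 (4.76-fold and 5.94-fold lower), and Rspo3, a secreted Wnt agonist, was at least 2.85-fold and 5.58-fold lower. Rnf43, a ubiquitin ligase that removes Wnt receptors, had levels of -2.08 and -0.84 at E9.5 and of 0.20 and 0.39 at E10.5 (4.85-fold and 2.34-fold higher). The related co-receptors Ror1 and Ror2 differed in opposite directions. Ror1 was 2.46-fold and 3.97-fold higher at E10.5, and Ror2 was 2.68-fold and at least 2.88-fold lower.

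In the retinoic acid list of 21, 1 gene was higher and 1 lower. Dhrs3, a reductase that lowers retinaldehyde, had levels of -1.40 and -1.94 at E9.5 and of 1.11 and -0.21 at E10.5 (5.71-fold and 3.32-fold higher; fitted difference 2.12 ± 0.29, SE, n = 2 arrays per stage; adjusted p = 0.53). Aldh1a2, the main embryonic enzyme of retinoic acid synthesis, had levels of -0.37 and -1.22 at E9.5 and of -1.47 at E10.5 rostral, was not well above background at E10.5 caudal, and stood at 3.82 and 3.75 in the Wt1-GFP cells. For Dhrs3 both E10.5 arrays were above both E9.5 arrays, and for Aldh1a2 both were below. In the FGF list of 23, Fgf12 was higher and Fgf1 and Dusp4 lower, and 13 members were lower in both pairs at any size against 3 higher. The other probe of Fgf1, well above background on 3 of the 4 arrays, gave a mean difference of -0.14 against -1.63. That of Fgf12 gave 1.36 against 2.19. Dusp4, a phosphatase that limits ERK signalling, had levels of 0.53 and 0.72 at E9.5 and of -1.39 and -0.70 at E10.5. Of 40 BMP and TGF-beta genes only Msx2, a homeobox target of BMP signals, passed the size rule, 5.53-fold and at least 6.07-fold lower. Of 22 Notch genes, 3 (13.6%) were lower, Dll1, Dll3 and Dlk1, and 0 of 14 Hedgehog genes passed. Dlk1, an imprinted membrane protein, had levels of 2.19 and 2.24 at E9.5 and of 0.77 and 0.63 at E10.5, against 6.55 and 5.70 in the Wt1-GFP cells. Dll1 was 2.19-fold and 3.42-fold lower.

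Among 42 guidance and Eph genes, Sema3c was at least 2-fold higher and Ephb1, Robo2 and Sema3a lower. Sema3c, a secreted semaphorin of the duct and bud, had levels of -0.59 and -0.74 at E9.5 and of 1.62 and 1.32 at E10.5 (4.62-fold and 4.17-fold higher; fitted difference 2.13 ± 0.21, SE, n = 2 arrays per stage; adjusted p = 0.52), and 2.24 in the E11.5 bud. Sema3a, a repellent semaphorin, had levels of 1.55 and 3.11 at E9.5 and of -0.86 and 1.52 at E10.5 (5.30-fold and 3.03-fold lower). Sema3c levels were tight within stages, whereas the E10.5 caudal level of Sema3a matched the E9.5 rostral one. Robo2, a Slit receptor, was 4.11-fold and 2.07-fold lower, and its 2 other probes gave mean differences of -0.97 and -1.08. The second of these was made of -2.33 in the rostral and 0.16 in the caudal pair, so it was not lower in the caudal pair. In the chemokine and cytokine list, Pdgfa, a ligand of Pdgfra, was 4.37-fold and 2.81-fold higher and Ackr3, a scavenger receptor of the Cxcr4 ligand, 2.94-fold and 2.65-fold higher.

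Transport, antigen presentation and growth genes were the remaining groups. Of 21 measured transport genes, 3 (14.3%) were at least 2-fold higher, Slc7a8, Slc6a13 and Atp1b1, 0 were lower, and 13 were higher in both pairs at any size against 1 lower. Slc6a13, a transporter of GABA and taurine, had levels of -0.56 and -0.33 at E9.5 and of 1.57 and 0.90 at E10.5, and Atp1b1, the beta subunit of the sodium pump, of 1.34 and -0.32 at E9.5 and of 2.88 and 0.86 at E10.5. Atp1b1 was the higher on the rostral array at both stages, and its E9.5 rostral level exceeded its E10.5 caudal one. In the antigen presentation list of 11, H2-DMb1 was 4.02-fold and 2.39-fold higher and H2-K1, a class I molecule, 2.24-fold and 2.30-fold higher. The other probe of H2-K1 differed by 0.66 log2 units in either pair, short of 2-fold. H2-DMb1 has a near-identical neighbour, H2-DMb2, which its probe may also detect. Of 28 cell cycle genes 0 passed the size rule. At any size 17 were lower and 3 higher in both pairs, where 22.1% and 21.5% of all genes were (median difference -0.35). The replication helicase subunits Mcm6 and Mcm7 were 1.55-fold and 1.38-fold, and 1.94-fold and 1.19-fold, lower in the rostral and the caudal pair. Of 26 glycolysis and hypoxia genes Ddit4, a stress-induced inhibitor of mTOR, was 3.26-fold and 2.92-fold higher, and 14 members were higher in both pairs at any size against 2 lower. Dnmt3a, a de novo DNA methyltransferase, was 2.26-fold and 2.32-fold higher, and the imprinted gene Peg10 was 9.5-fold and 2.15-fold lower.

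**Figure D4:**
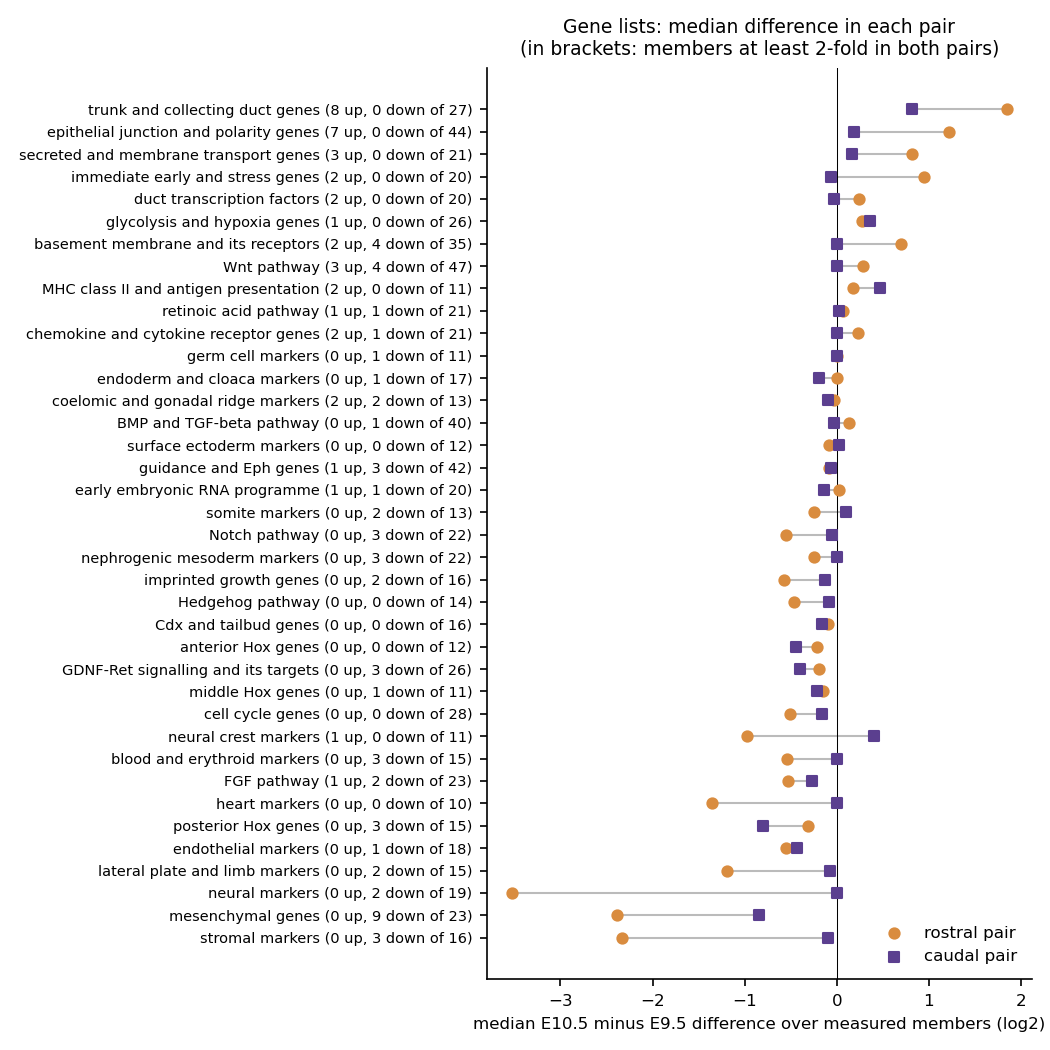
The plot of gene lists gives, for each of the 38 lists, the median E10.5 minus E9.5 difference over its measured members (x axis, log2) in the rostral pair (circles) and in the caudal pair (squares), with the number at least 2-fold in both pairs in brackets. The trunk list has medians of 1.85 and 0.82 and the mesenchymal list of -2.39 and -0.85, while the neural and stromal lists are low in the rostral pair, at -3.53 and -2.33, and near 0 in the caudal pair.

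By list median, neural, stromal, lateral plate and heart markers differed more in the rostral than in the caudal pair. Endothelial markers had medians of -0.55 and -0.43, and the globins below differed more in the caudal pair. Background cut the caudal differences sooner: the dimmest level well above background was -3.95 on the E10.5 caudal array and -5.22 on the E10.5 rostral one. Of 19 neural genes 2 passed the size rule, both lower, Sox2 and Mnx1, and the list's median was -3.53 in the rostral and 0.0 in the caudal pair. Mnx1, a motor neuron homeobox factor, had levels of 2.01 at E9.5 rostral, -1.13 at E9.5 caudal, -4.27 at E10.5 rostral and -2.74 at E10.5 caudal. Tubb3, a neuronal tubulin, had levels of 6.45 and 3.17 at E9.5 and of 2.92 and 4.33 at E10.5, so that only the E9.5 rostral array was high. Elavl3, a neuronal RNA-binding protein, was at 1.28 on that array, not well above background at E9.5 caudal, and at -2.29 and -3.08 at E10.5. Isl1, a homeobox factor of motor neurons and other lineages, was 38.5-fold lower at E10.5 in the rostral and 1.73-fold lower in the caudal pair.

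Of 16 stromal markers 3 (18.8%) were at least 2-fold lower in both pairs, Foxd1, Meis1 and Pdgfra, and 0 higher; the median was -2.33 in the rostral and -0.1 in the caudal pair, and 6 of the 16 gave no order in the caudal pair. By the size rule 1 passed with normexp background correction, and 1 over genes well above background on all 4 arrays. Their summed signal was 42.1 on the E9.5 rostral array and between 21.7 and 22.3 on the other 3, against 133 and 97.5 in the Wt1-GFP cells. Meis1, a homeobox cofactor of mesenchyme, had levels of 2.29 and 0.21 at E9.5 and of -2.19 and -1.93 at E10.5, and 3.83 and 3.76 in the Wt1-GFP cells. Its E9.5 rostral level was the high one, with 22.3-fold in the rostral and 4.40-fold in the caudal pair. Of 22 nephrogenic markers 3 were lower, Meox1 and Meox2 among them. Their summed signal, between 650 and 731 on the 4 arrays, was carried by Eya1, whose probe lay between 9.12 and 9.5 on all 8 arrays. Six2, which defines nephron progenitors, was well above background on the E9.5 rostral array alone of the 4, at -2.74.

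Of 15 lateral plate markers 2 were lower, Prrx1 and Msx2, and their summed signal was 10.9 and 5.0 at E9.5 and 3.19 and 2.82 at E10.5. Of 13 coelomic and gonadal ridge markers 2 were higher, Krt19 and Upk3b, and 2 lower, Lhx9 and Aldh1a2. Upk3b, a uroplakin of mesothelium, was not well above background at E9.5 and was at -2.43 and -1.89 at E10.5. Lhx9, a factor of the gonadal ridge, was 3.19-fold and at least 2.76-fold lower, and -0.88 was the mean difference on the other probe measured in both pairs. Heart markers were present on the E9.5 rostral array: Tnnt2, a cardiac troponin, was at 1.81 there, at -3.56 at E9.5 caudal, and not well above background at E10.5. None of 10 heart markers passed the size rule. How far such cells entered into the mesenchymal and Hox differences of the rostral pair was not tested; the caudal difference beside each value does not use the E9.5 rostral array.

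Of 15 blood and erythroid markers 3 were at least 2-fold lower in both pairs, the embryonic globins Hbb-y, Hba-x and Hbb-bh1, and 0 were higher. Hbb-y had the largest difference of the caudal pair over all genes. Hbb-y, an embryonic beta-like globin, had levels of 3.06 and 4.27 at E9.5, 1.91 at E10.5 rostral and -3.64 at E10.5 caudal. Only the E10.5 caudal array was low, 241-fold under its E9.5 partner, where the rostral pair differed by 2.22-fold. Hba-x and Hbb-bh1 were not well above background on that array and were 2.76-fold and 2.40-fold lower in the rostral pair. Globin genes are related to each other, and whether these probes detect each other's RNA was not tested. Of 18 endothelial markers only Emcn, an endothelial sialomucin, passed the size rule, 3.24-fold and at least 2.53-fold lower, and Cdh5, VE-cadherin, was at -2.06 and -1.23 at E9.5 and at -2.48 and -3.27 at E10.5. Among 17 endoderm and cloaca markers, Foxa2 was at least 4.18-fold and 14.6-fold lower, and Ttr was not well above background on any of the 4 arrays. The other marker lists had 0 or 1 member in either direction, except the 13 somite markers, where Meox1 and Meox2 were the 2 lower ones: Dbh was higher among 11 neural crest markers, Sox2 lower among 11 germ cell markers, and none passed among 12 surface ectoderm markers. Of 20 immediate early and stress genes, which respond to handling of cells, 2 were higher at E10.5, Ier3 (2.89-fold and at least 8.47-fold) and Hspb1 (3.15-fold and at least 4.92-fold), and the list's median was 0.95 in the rostral and -0.06 in the caudal pair.

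The difference by position in the E10.5 duct was also tested. The test set the caudal minus rostral difference at E10.5 against one shared by the E9.5 duct and the Wt1-GFP cells, so its values are not the caudal minus the rostral stage difference, which was not tested. With limma, 0 of 29538 genes (0%) passed, the lowest adjusted p was 0.72, and 1914 genes had an unadjusted p under 0.05, with 1 residual degree of freedom. By size, 282 genes were at least 2-fold lower at E10.5 in the rostral and at least 2-fold higher in the caudal pair, and 118 the other way round. Of the first kind, Stmn2, a neuronal microtubule regulator, had levels of 3.47 at E9.5 rostral, -3.38 at E9.5 caudal, -2.13 at E10.5 rostral and -0.06 at E10.5 caudal. Mapk8ip2, a scaffold of neuronal JNK signalling, had levels of 2.44, -3.61, -2.51 and -0.11 in the same order, and Chga, a secretory granule protein of neuroendocrine cells, was at 0.65, not well above background, -3.16 and -1.53. These 3 genes shared a high E9.5 rostral level and a low E9.5 caudal one. Of the other kind, Gulo, the enzyme of vitamin C synthesis, had levels of -3.65 and 1.27 at E9.5 and of -0.40 and -1.64 at E10.5. Egr2, an immediate early factor also known from the hindbrain, had levels of -1.35 and 0.67 at E9.5 and of 1.62 and -1.43 at E10.5. For both, the E9.5 caudal and the E10.5 rostral array were the higher ones.

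**Figure D5:**
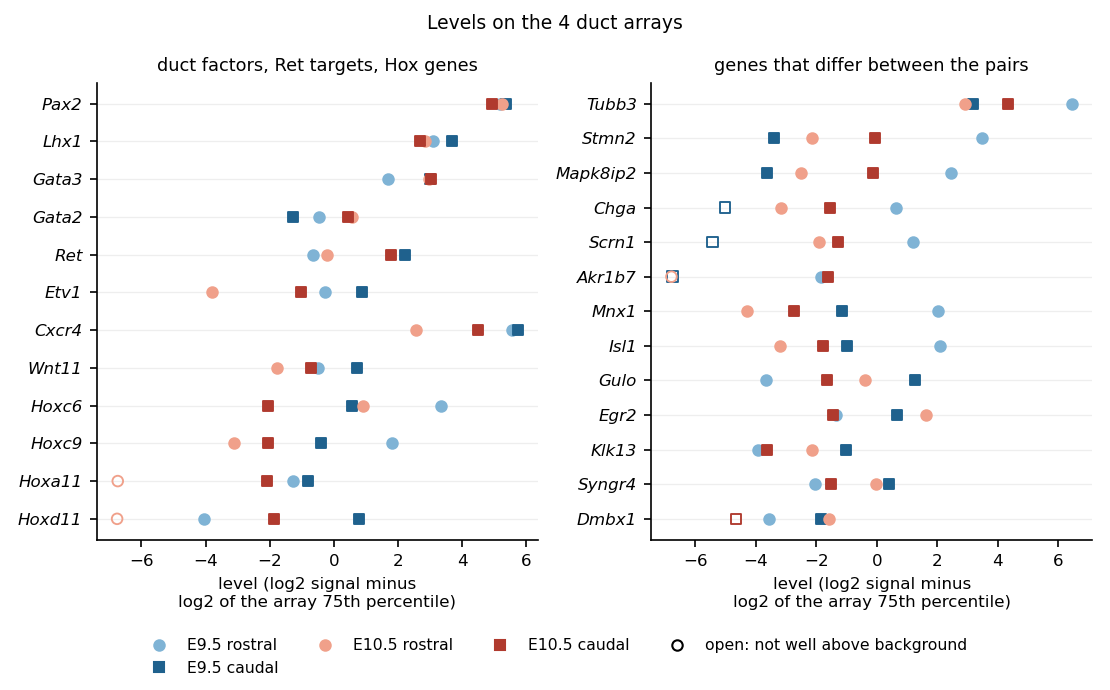
The plot of position and stage gives the level on the 4 duct arrays (x axis, log2 signal minus log2 of the array 75th percentile) for duct factors, Ret targets and Hox genes (left) and for genes whose rostral and caudal differences were opposite or unequal (right); open symbols are not well above background. The caudal arrays of both stages (squares) are the higher ones for Ret, and the E9.5 rostral array is the highest for Tubb3, Stmn2, Mapk8ip2 and Mnx1.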

How the data were processed

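Gene expression was measured on 1-colour Agilent arrays (Cy3) from 10 ng of total RNA amplified with the NuGEN Pico kit, per the labels' protocols. Each deposited intensity came from Agilent Feature Extraction 10.7.3.1 as its processed signal, background-subtracted and detrended, per the file headers and the submitters' processing notes. The deposited matrix holds log2 values that followed the scanner levels centred on each probe's median (r = 0.9998; column medians -0.07 to 0.08); it served as an alternative. Of 55681 probes, 18 without a usable spot on some array were dropped. Probes took their RefSeq name by accession (26856) or symbol (3750), else their own (25057). Those well above background on at least 1 array were tested, with the brightest probe per gene (29538 genes). Where neither array of a pair was well above background, or the sign rested on the array that was not, the pair's difference was set to 0 (2940 genes rostral, 4960 caudal). limma 3.58.1 (R 4.3.3) fitted 5 groups and a position term (0.5 rostral, -0.5 caudal, 0 undivided) to all 8 arrays, assuming that groups with 1 array vary like the others; adjustment was Benjamini-Hochberg over all genes, at 0.05.

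The number of arrays limits the precision. The 75th percentile signal was 251.1 to 303.8 on the 4 arrays. The fit was tested on simulated data. Alternatives were other normalizations, background corrections, probe rules, filters, prior variances, covariates and left-out arrays. The comparison, its members and the 38 gene lists (761 names, 732 measured) were chosen with earlier results of these data known. Named were the genes that check the sort, the 15 largest differences each way by the smaller of both pairs, up to 6 members of a pathway list or 3 of a marker list past the size rule with the brightest, and the 5 largest opposite differences each way; other genes were named after their values were seen. Of 38 named genes with another probe measured in both pairs, 6 had one of opposite sign. The lists' lowest adjusted p lay between 0.52 and 0.71, and no list gene passed. A few genes that the naming rule gives are not reported here.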

Additional observations from a re-analysis of the deposited data

Results flagged for a closer look

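Of the genes measured, 10 were set apart because their rostral and their caudal difference between E9.5 and E10.5 had opposite signs, on 1 array per position and stage. The caudal difference minus the rostral one, on the log2 scale, was 8.92 for Stmn2, 8.45 for Mapk8ip2, 7.24 for Chga, 6.78 for Scrn1 and 6.75 for Akr1b7. It was -6.15 for Gulo, -5.08 for Egr2, -4.40 for Klk13, -4.10 for Dmbx1 and -3.92 for Syngr4. They were the 5 largest of each kind among genes with a RefSeq symbol, so their size follows from the choice. The difference between the pairs itself was not tested. A limma fit that set the position difference at E10.5 against one shared by the E9.5 duct and the Wt1-GFP cells called none of them, with 0 genes past an adjusted p of 0.05, 1914 at an unadjusted p under 0.05, and 1 residual degree of freedom. Each position and stage has 1 array, the E10.5 caudal array lies in the other slide row, and the E9.5 rostral array carries the high neural marker sum, so position, slide row and array cannot be told apart for these genes. Akr1b7 was not well above background on the E9.5 caudal and E10.5 rostral arrays, Chga and Scrn1 on the E9.5 caudal array, and Dmbx1 on the E10.5 caudal array, so their values are bounds; the second probe of Scrn1 gave a mean stage difference of -0.04 against 0.28.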

How the results depend on the processing

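No gene passed an adjusted p of 0.05 in limma under any alternative run. The lowest adjusted p was 0.14 with the intensity trend, 0.15 with normexp background correction, 0.21 without the position term, 0.65 with the slide row as a block, and 0.067 to 0.76 when 1 array was left out, with or without the trend. No paired analysis with a replicate block was run beside the position term, because replicate number and position are the same here: the term in the main fit is that pairing. The genes at least 2-fold in both pairs numbered 444 higher and 332 lower; they were 1102 and 947 at 1.5-fold, 72 and 50 at 4-fold, and 147 and 85 with normexp background correction, which compresses dim signals, and the lower count was 203 over genes well above background on all 4 arrays. Under quantile normalization, the deposited matrix and the mean over probes these counts stayed within 1.5 times. No named gene or list median past the size rule turned its direction. Dim signal limits the rest: 16.8% of genes had no order in the caudal pair and 9.95% in the rostral one.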

Other observations

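Of the 732 list members measured, 19 had a level above 6 on all 8 arrays, and 11 of these varied by less than 0.5 over all arrays, reporters and stages included. Pkp3, which encodes a plakophilin of desmosomes, lay between 8.31 and 8.54, Ephb3, an Eph receptor, between 9.11 and 9.40, Nanog, a pluripotency factor, between 8.36 and 8.70, and Gata5, a factor of heart and endoderm, between 6.84 and 7.2. The second probe of Trp63 gave a mean stage difference of 0.60 against -0.03, and that of Smo 0.10 against 0.06. Second probes had much lower mean levels over the 8 arrays: -3.49 against 8.55 for Nanog, -4.36 against 6.31 for Trp63 and 0.22 against 6.71 for Smo. That of Nanog was well above background on 1 of the 4 duct arrays. Which probe follows the RNA of each gene was not tested, so the high levels may not be those of the genes. These genes are not read as unchanged.

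Some epithelial genes outside the size rule were named after their values were seen. Wnt9b, a ligand of the duct that acts on nephron progenitors, had levels of 1.40 and 2.10 on the rostral and caudal arrays at E9.5 and of 3.52 and 2.94 at E10.5. Both E10.5 arrays were above both E9.5 ones. Aqp3, a water channel of the collecting duct, had levels of -0.36 and -1.68 at E9.5 and of 3.30 and -1.0 at E10.5, high on the E10.5 rostral array alone.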
